A study of Mus musculus with 70 samples.

Results

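The semaphorin, plexin, Eph receptor and ephrin genes were taken by symbol: protein-coding mouse genes named as a numbered Sema, Plxn, Eph or Efn gene, with 1 semaphorin left out by the rule. The rule found 47 genes among the 50789 in the count table. They were 18 semaphorins, 8 plexins, 13 Eph receptors and 8 ephrins. Sema4c, Plxna2 and Epha4, whose names fit the rule, were not among the 47. Counts by family therefore cover the genes found and not whole families. No measured value entered the rule.

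Semaphorins are secreted, transmembrane or lipid-anchored proteins that steer growing axons, migrating cells and blood vessels, often by repulsion. Plexins are their receptors, most secreted (class 3) semaphorins needing a neuropilin as well, and act on small GTPases and the cytoskeleton. Eph receptors are tyrosine kinases that bind ephrins on neighbouring cells, with signals running into both cells: EphA receptors mainly bind the lipid-anchored ephrin-A proteins and EphB receptors the transmembrane ephrin-B proteins. In the adult brain these families also act at synapses, and in the growing lung in vessels.

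Capicua, the product of Cic, is a transcriptional repressor with a short (S) and a long (L) isoform. RNA was sequenced from tissue of Cic-S-KO mice, Cic-L-KO mice and wild-type (WT) littermates pooled over both lines. The lungs were from pups at postnatal day 6 (P6), and both brain regions from mice aged 12 weeks. The 9 groups held 8 samples each, except Cic-S-KO cortex and Cic-S-KO cerebellum with 7 each, 70 samples in all. The labels used here give neither the alleles, nor the cells in which Cic was lost, nor the line of each WT sample, so no knockout was compared with littermates of its own line alone. They do not say whether samples of a group are separate animals. By reads of Y-linked genes, 4 of 8 samples of each group, or 3 of 7, were male, so each group held both sexes. Beyond that, samples may share animals, so the p-values measure only the spread between these samples, which may be technical in part. All lung samples carry batch label 1 and all brain samples batch label 2. Tissue, age and batch cannot be told apart between lung and brain, which were not tested against each other.

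Libraries held 17798655 to 35523037 counted reads. In WT samples the tissue labels matched their markers, in CPM (read counts scaled to library size): the surfactant gene Sftpc was at 12160.0 to 15880.0 in lung and at most at 0.787 in brain, the cortical gene Tbr1 at 151 to 181 in cortex and at most at 1.06 elsewhere, and the granule neuron gene Gabra6 at 599 to 846 in cerebellum and at most at 0.236 elsewhere. Cic was counted over the whole gene, which does not separate the isoforms and so does not check the labels. It was at 150.3 to 173 CPM in WT cortex, 237 to 260.5 in Cic-S-KO cortex and 269 to 318 in Cic-L-KO cortex, at 128 to 157, 149 to 183 and 131 to 148 in lung, and at 172 to 212, 184 to 227 and 195 to 230.3 in cerebellum. In 5 of the 23 cerebellar libraries (WT replicate 1, Cic-S-KO replicates 4 and 6, Cic-L-KO replicates 3 and 4) Slc17a6, a glutamate transporter gene of brainstem neurons, was at 79.6 to 107 CPM, against 20.7 to 51.0 in the other cerebellar libraries, and counts of cerebellar comparisons are given with and without these 5.

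The sequence upstream of 4 members is shown because Sema5a, Sema5b and Plxnd1 lead the changes of Cic-L-KO cortex described below, and because Epha2 was the only member whose window held an octamer that Capicua is known to bind. Each run is the 250 bases before the RefSeq transcript start (GRCm38.p6), 5′ to 3′ on the strand of the gene. Capitals mark the GC box GGGCGG on either strand in Sema5a and Plxnd1 and the octamer in Epha2, and Sema5b held no match to either. The windows are chr15:32244563-32244812 (plus strand) for Sema5a, chr16:35541112-35541361 (plus strand) for Sema5b, chr6:115995006-115995255 (minus strand) for Plxnd1 and chr4:141300971-141301220 (plus strand) for Epha2.
Sema5a: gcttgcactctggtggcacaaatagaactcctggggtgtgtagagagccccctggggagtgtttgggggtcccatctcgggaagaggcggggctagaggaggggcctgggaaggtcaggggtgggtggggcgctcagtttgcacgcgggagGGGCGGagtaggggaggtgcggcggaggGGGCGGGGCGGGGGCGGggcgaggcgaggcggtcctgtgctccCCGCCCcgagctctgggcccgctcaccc
Sema5b: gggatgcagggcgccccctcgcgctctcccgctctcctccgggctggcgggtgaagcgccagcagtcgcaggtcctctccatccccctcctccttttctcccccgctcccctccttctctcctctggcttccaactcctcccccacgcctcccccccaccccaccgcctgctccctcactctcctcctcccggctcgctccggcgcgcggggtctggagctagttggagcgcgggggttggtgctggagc
Plxnd1: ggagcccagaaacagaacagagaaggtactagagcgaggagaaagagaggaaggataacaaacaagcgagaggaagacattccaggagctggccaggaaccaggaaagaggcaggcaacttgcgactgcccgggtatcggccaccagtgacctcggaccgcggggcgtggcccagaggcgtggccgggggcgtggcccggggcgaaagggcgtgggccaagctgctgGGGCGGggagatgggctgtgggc
Epha2: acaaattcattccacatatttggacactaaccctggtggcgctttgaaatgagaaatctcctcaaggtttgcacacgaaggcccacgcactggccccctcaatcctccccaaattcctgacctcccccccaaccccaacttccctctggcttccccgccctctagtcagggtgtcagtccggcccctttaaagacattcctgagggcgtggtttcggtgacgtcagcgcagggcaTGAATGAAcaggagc

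The octamer was searched on both strands in 4 forms, TGAATGAA, TGAATGGA, TCAATGAA and TCAATGGA. Of the 47 members, 41 had a RefSeq window, 54 windows in all. The octamer stood in 1 of the 54 (1.85%), that of Epha2, 15 bases before the start, and in 3.19% of all 32851 windows of this length. A GC box stood in 39 of the 54 (72.2%) and in 32.7% of all windows. A match is a run of letters in this window and no measure of binding.

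In WT mice the leading members differed by tissue. Levels between genes and tissues are CPM per kb of exon, scaled over all 70 samples (mean ± SD, n = 8). Among ligands, the secreted Sema3c reached 49.7 ± 8.46 and Sema3g 40.1 ± 6.98 CPM per kb in lung. Sema7a, the lipid-anchored ligand of Plxnc1 and of integrins, had the highest level of the 47 in cortex (88.1 ± 11.9) and in cerebellum (99.95 ± 2.50). The transmembrane Sema6b was at 43.0 ± 2.09 in cortex and 20.4 ± 0.780 in cerebellum. The arterial ligand Efnb2 was at 39.4 ± 4.91 in lung.

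Among receptors, Ephb4, the venous receptor of Efnb2, had the highest level in lung at 60.6 ± 6.45 CPM per kb. Plxnd1, a plexin of vessels and of cortical neurons, was at 46.2 ± 3.75 in lung and 19.1 ± 1.47 in cortex. Ephb6, an Eph receptor without kinase activity, ranked next after Sema7a in cortex at 46.8 ± 6.05, and it did not differ from Sema6b there beyond their spreads. In cerebellum Plxnb2 ranked next after Sema7a at 25.9 ± 1.29, and its spread overlapped that of Efnb3 at 22.0 ± 3.03. Epha6 (0.00166 ± 0.00471) and Epha10 (0.00634 ± 0.00574) in lung and Efna4 in cortex (0.0983 ± 0.0680) and cerebellum (0.145 ± 0.0998) were too low to test, and the other members passed the filter on low counts in each tissue.

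**Figure D1:**
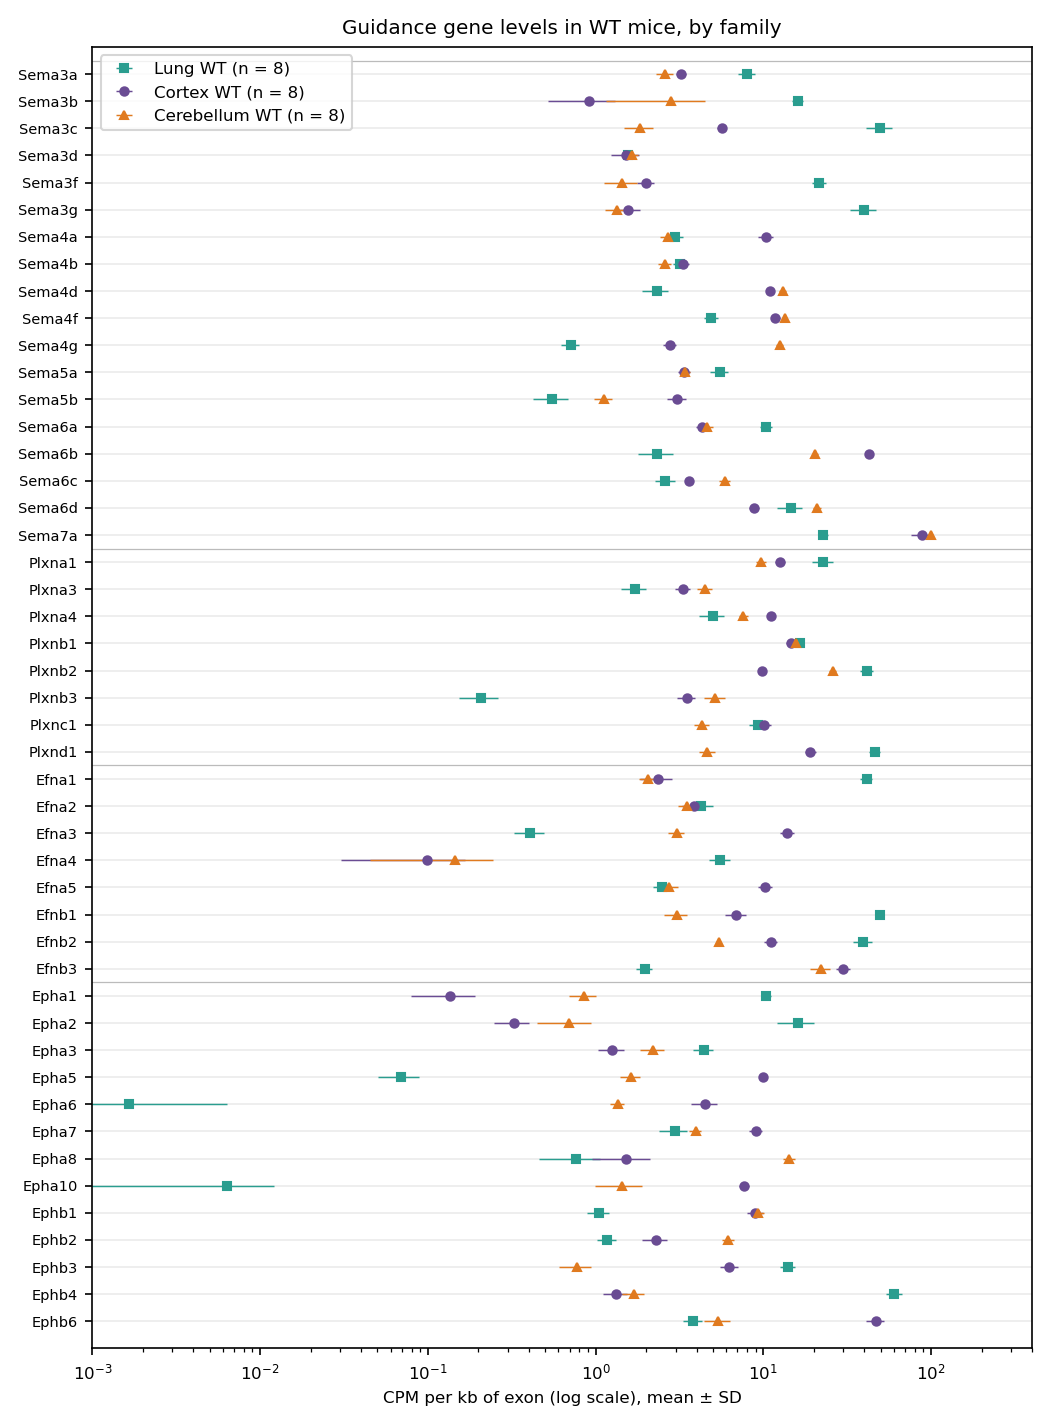
Level of each of the 47 members in WT lung, cortex and cerebellum, as mean ± SD (n = 8) in CPM per kb of exon on a log axis, by family. Sema7a lies furthest right in both brain regions and Ephb4 in lung, and the error bars of Epha6 and Epha10 in lung leave the axis on the left.

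WT cortex and WT cerebellum were compared directly with edgeR's quasi-likelihood test and Benjamini-Hochberg adjustment over all genes, called at an adjusted p under 0.05. Of 46 tested members, 40 (87.0%) differed, 22 higher in cortex and 18 lower, against 73.5% of all 18032 genes (35.4% higher and 38.2% lower). Without the 5 libraries high in Slc17a6, of which 1 is WT, 41 differed, 40 of them the same, where 72.8% of all genes did. The median absolute log2 difference was 1.03 over the members and 0.47 over all genes. Of 7 tested ephrins 5 were higher in cortex (Efna3, Efna5 and the 3 ephrin-B genes), while the Eph receptors split into 6 higher and 6 lower.

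Ephb6 was at 142 to 194 CPM in cortex (median 153) and at 16.7 to 28.0 in cerebellum (median 18.8), a log2 difference of 3.10 ± 0.092 (SE, adjusted p = 5.99e-31). Also higher in cortex were Ephb3 (3.01 ± 0.14, adjusted p = 5.92e-24), Epha5 (2.60 ± 0.093, 1.58e-27), Epha10 (2.40 ± 0.14, 4.68e-19) and Efna3 (2.18 ± 0.081, 1.83e-29). The samples of the regions did not overlap for these 5 genes. Lower in cortex, again without overlap, were Epha8 (-3.24 ± 0.15, adjusted p = 2.53e-23), Epha1 (-2.66 ± 0.21, 1.44e-16), Sema4g (-2.20 ± 0.069, 5.97e-32) and Ephb2 (-1.46 ± 0.084, 1.19e-20). Sema3b was lower with overlap (-1.63 ± 0.38, adjusted p = 0.000196), at 2.36 to 7.74 CPM in cortex and 2.69 to 24.5 in cerebellum. Sema5a, at 57.3 ± 4.73 and 62.8 ± 3.71 CPM (SD, n = 8), did not pass (-0.049 ± 0.052, adjusted p = 0.400). All 5 choroid plexus markers, a list made after these data had been seen, were lower in WT cortex. They summed to 12.96 to 2914 CPM in WT cerebellum (median 1372) and 14.49 to 556.8 in WT cortex (median 20.65). Their part in the differences of Sema3b and other members between regions was not tested.

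In the cortex of Cic-L-KO, 24 of 46 tested members (52.2%) passed against WT, 15 higher and 9 lower. Of all 16974 genes 43.2% did (21.4% higher and 21.9% lower). By family, 10 of 18 semaphorins, 5 of 8 plexins, 8 of 13 Eph receptors and 1 of 7 tested ephrins passed. The median log2 fold change was 0.093 over the members and 0.011 over all genes, and the median absolute change 0.22 and 0.18. Both class 5 semaphorins rose and Plxnd1 fell. Of 8 EphA receptors 4 were lower and the others did not pass, while of 5 EphB receptors 3 were higher and 1 lower.

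Among the ligands, 8 of 18 semaphorins rose and 2 fell. Sema5a, a transmembrane semaphorin with thrombospondin repeats, was at 49.1 to 62.8 CPM in WT cortex (median 58.7), 45.3 to 61.9 in Cic-S-KO (median 52.3) and 83.0 to 98.1 in Cic-L-KO (median 90.8). Sema5b, of the same class, was at 16.5 to 24.5 CPM in WT (median 19.5), 19.9 to 23.5 in Cic-S-KO (median 21.9) and 30.6 to 36.9 in Cic-L-KO (median 32.3). For both genes every Cic-L-KO sample was above every WT and Cic-S-KO sample, and the WT and Cic-S-KO samples overlapped. The log2 fold change in Cic-L-KO was 0.67 ± 0.052 for Sema5a (SE, adjusted p = 1.34e-11) and 0.74 ± 0.063 for Sema5b (8.76e-11).

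Sema6a, a transmembrane ligand of Plxna4, rose by 0.33 ± 0.051 (adjusted p = 6.13e-06), Sema4g by 0.38 ± 0.074 (0.000141) and secreted Sema3c by 0.22 ± 0.049 (0.000646), each with 8 of 8 samples above all WT samples. Sema6d, Sema4b and Sema3g rose by 0.21, 0.19 and 0.27, and Sema3d and Sema6b fell by 0.28 and 0.13 on the log2 scale. Of 7 tested ephrins 1 passed. Efnb1, a transmembrane ephrin, was at 17.1 to 26.7 CPM in WT cortex (median 21.6) and at 11.2 to 19.3 in Cic-L-KO (median 15.3), a change of -0.51 ± 0.095 (adjusted p = 9.10e-05), with 7 of 8 samples below all WT samples.

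Plexins moved in both directions. Plxnd1 was at 115 to 142 CPM in WT cortex (median 129), 109 to 145 in Cic-S-KO (median 132) and 56.8 to 82.7 in Cic-L-KO (median 70.7). All Cic-L-KO samples were below both other groups, and the change against WT was -0.84 ± 0.070 (adjusted p = 7.35e-10). Plxna4, which receives Sema3a together with neuropilin-1, was at 132 to 154 CPM in WT (median 143) and 187 to 208 in Cic-L-KO (median 194), without overlap, a change of 0.45 ± 0.039 (adjusted p = 1.09e-10). Plxnc1, the receptor of Sema7a, rose by 0.23 ± 0.065 (adjusted p = 0.00530), Plxnb1, the receptor of Sema4d, by 0.18 ± 0.044 (0.00159) and Plxna1 by 0.17 ± 0.053 (0.0110).

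In the EphA class, Epha6 fell by 0.47 ± 0.10 (adjusted p = 0.000607), Epha3 by 0.45 ± 0.11 (0.00167), Epha7 by 0.33 ± 0.051 (5.10e-06) and Epha10, a receptor without kinase activity, by 0.24 ± 0.068 (0.00536). Each had 6 or 7 of 8 samples below all WT samples. Epha7, a receptor with roles in cortical maps, was at 69.8 to 91.5 CPM in WT (median 82.1) and 61.0 to 69.9 in Cic-L-KO (median 64.7). Epha5 did not pass (-0.042 ± 0.043, adjusted p = 0.450). In the EphB class, Ephb4 rose by 0.44 ± 0.10 (adjusted p = 0.000799), Ephb1 by 0.25 ± 0.059 (0.00118) and Ephb2 by 0.25 ± 0.085 (0.0207), the last with no sample above all WT samples, while Ephb6 fell by 0.28 ± 0.075 (0.00388). In whole tissue, fewer cells of a type and less RNA per cell cannot be told apart. Of 5 endothelial markers 3 (Kdr, Tie1, Cldn5) were higher in Cic-L-KO cortex, with a summed level of 91.8 to 126 CPM against 63.3 to 111 in WT and no marker at 0. Of 6 inhibitory neuron markers 3 (Pvalb, Slc32a1, Sst) were higher and 1 (Vip) lower, at 1103 to 1277 CPM summed against 949.9 to 1067 in WT. Of 5 choroid plexus markers, a list made after these data had been seen, 2 (Kcne2, Sostdc1) were higher, at 9.84 to 1218 CPM summed (median 382) against 14.5 to 557 (median 20.6), with no marker of either list at 0. The part of these markers in the changes of the members in Cic-L-KO cortex was not tested.

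**Figure D2:**
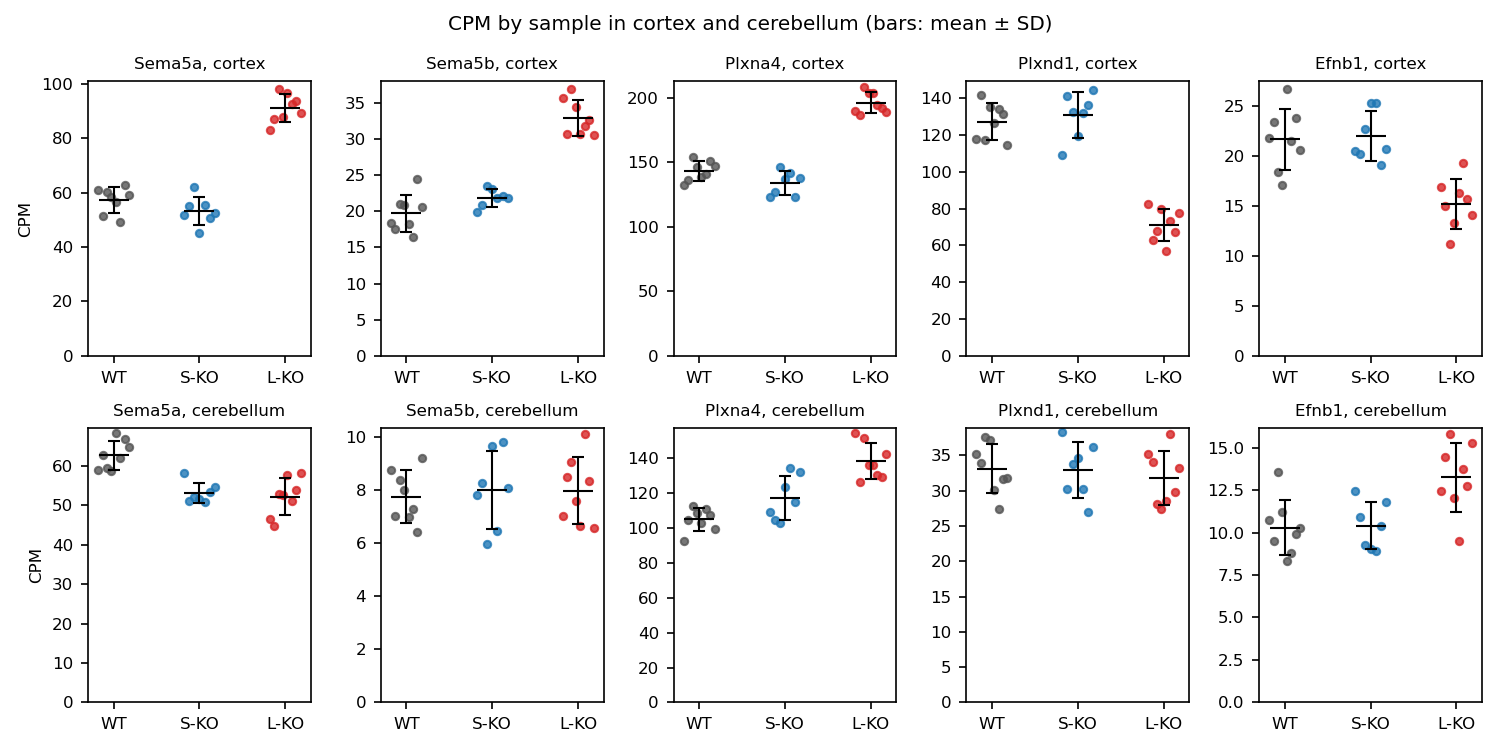
CPM of each sample of WT, Cic-S-KO and Cic-L-KO for Sema5a, Sema5b, Plxna4, Plxnd1 and Efnb1, with cortex in the top row and cerebellum in the bottom row and bars for mean ± SD (n = 8, or 7 in Cic-S-KO). In cortex the Cic-L-KO points of Sema5a, Sema5b and Plxna4 lie above all WT points and those of Plxnd1 below them, while in cerebellum those of Sema5a lie below all WT points.

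In the cerebellum of Cic-L-KO, 18 of 46 tested members (39.1%) passed, 12 higher and 6 lower, against 21.5% of all 16643 genes (10.9% higher and 10.6% lower). Of 7 tested ephrins 5 rose, and the other two did not pass. The median log2 fold change was 0.085 over the members and 0.0038 over all genes, and the median absolute change was 0.12 and 0.12. Without the 5 libraries high in Slc17a6, 17 members passed, 15 of them the same, where 19.9% of all genes did.

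Efna1, a lipid-anchored ligand of Epha2, was at 3.35 to 4.54 CPM in WT cerebellum (median 3.48) and 4.59 to 6.81 in Cic-L-KO (median 6.04). All 8 Cic-L-KO samples were above WT, with a log2 fold change of 0.69 ± 0.10 (adjusted p = 1.68e-05). Efnb3, a transmembrane ephrin of midline guidance, rose by 0.37 ± 0.093 (adjusted p = 0.00662), Efnb1 by 0.37 ± 0.10 (0.00900), Efna3 by 0.29 ± 0.094 (0.0256) and Efna5 by 0.27 ± 0.082 (0.0201), with 3 or 4 of 8 samples above all WT samples. An antisense gene overlaps 14.1% of the exon length of Efna3, and whether counting used strand is not given in the sources used here, so reads of both cannot be told apart. Efnb2, at 36.4 ± 1.45 CPM in WT and 40.6 ± 5.08 in Cic-L-KO (SD, n = 8), did not pass (0.16 ± 0.064, adjusted p = 0.0819).

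Of 18 semaphorins 4 passed, all of them membrane-bound. Sema6a rose by 0.32 ± 0.052 (adjusted p = 0.000102), from 34.7 to 44.2 CPM in WT to 45.4 to 52.9 in Cic-L-KO without overlap, and Sema4a by 0.30 ± 0.087 (0.0124). Sema5a was at 58.6 to 68.5 CPM in WT cerebellum (median 62.5) and 44.7 to 58.2 in Cic-L-KO (median 52.8), below WT in 8 of 8 samples, and fell by 0.27 ± 0.049 (adjusted p = 0.000323). Sema6c fell by 0.17 ± 0.058 (0.0372).

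Plexins gave 3 rises and 3 falls. Plxna4 was at 92.9 to 113 CPM in WT (median 106) and 127 to 154 in Cic-L-KO (median 136), a change of 0.40 ± 0.055 (adjusted p = 1.42e-05) without overlap. Plxnc1 rose by 0.25 and Plxnb1 by 0.12, while Plxna3 fell by 0.23, Plxna1 by 0.18 and Plxnb2 by 0.12. Of the Eph receptors, Ephb3 rose by 0.49 ± 0.16 (adjusted p = 0.0257, 0.38 without the 5 libraries, and an adjusted p of 0.0746 with no filter on low counts), Ephb4 rose by 0.27 ± 0.10 (0.0445) and Epha3 fell by 0.38 ± 0.10 (0.0102), with 2 of 8 samples below all WT samples. All 5 endothelial markers were higher in Cic-L-KO cerebellum, summing to 102 to 120.4 CPM against 56.9 to 85.1 in WT with no marker at 0, as were all 3 tested of 5 pericyte and mesenchyme markers (69.7 to 85.6 against 50.7 to 72.8 CPM over the list, with Tagln at 0 in some samples of each genotype). Of 5 tested inhibitory neuron markers 4 were higher there (1909 to 2264 CPM summed over the list of 6, against 1520.0 to 1849). Of 5 granule neuron markers 1 (Gabra6) was lower, with 3400 to 4638 CPM summed against 4317 to 5338 in WT. The 5 choroid plexus markers summed to 418.9 to 3238 CPM against 12.96 to 2914 in WT, and none of them passed. The part of these markers in the changes of the members was not tested.

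Whether the Cic-L-KO effect differed between the brain regions was tested by an interaction term that paired no samples between regions. It differed for 17 of 46 members, with the effect in cortex higher for 8 and lower for 9, against 23% of all 18032 genes (11.5% higher and 11.5% lower). Without the 5 cerebellar libraries 12 differed, 10 of them the same, where 20.1% of all genes did. For Sema5a the difference was 0.93 ± 0.074 (adjusted p = 7.95e-14), with a rise in cortex and a fall in cerebellum. For Efnb1 it was -0.88 ± 0.14 (6.75e-06), with a fall in cortex and a rise in cerebellum. Plxnd1 (-0.78 ± 0.11, 5.44e-07) and Sema5b (0.70 ± 0.12, 2.76e-05) changed in cortex, and their cerebellar values of -0.059 ± 0.077 and 0.044 ± 0.11 did not pass. Plxna1 differed by 0.35 ± 0.072 (0.000266), and an antisense gene overlaps 10.7% of its exon length.

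The effects on Efna3 (-0.37), Efna5 (-0.35) and Efnb2 (-0.27) were also lower in cortex, as were those on Epha6 (-0.40) and Ephb6 (-0.37). Over the 3 tissues, 35 of 47 members (74.5%) passed in at least 1 tissue of Cic-L-KO, against 47.8% of the 19440 genes tested in any tissue. Those shares rest on unlike numbers of tests, as 44 members but only 14306 of the genes were tested in all 3 tissues. Of the 44 tested in all 3 tissues, 0 passed in the same direction in all 3 by edgeR, 1 by DESeq2 and 3 at an unadjusted p under 0.05, where 0.748% of 14306 genes did by edgeR. In 2 tissues and the same direction, 8 of 46 passed (17.4%, against 10.5% of genes): Epha3 was lower, and Efna1, Ephb4, Plxna4, Plxnb1, Plxnc1, Sema4a and Sema6a were higher. Efnb1, Plxna1 and Sema5a passed in opposite directions in cortex and cerebellum, and 6.52% of members and 2.82% of genes did so in any 2 tissues.

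**Figure D3:**
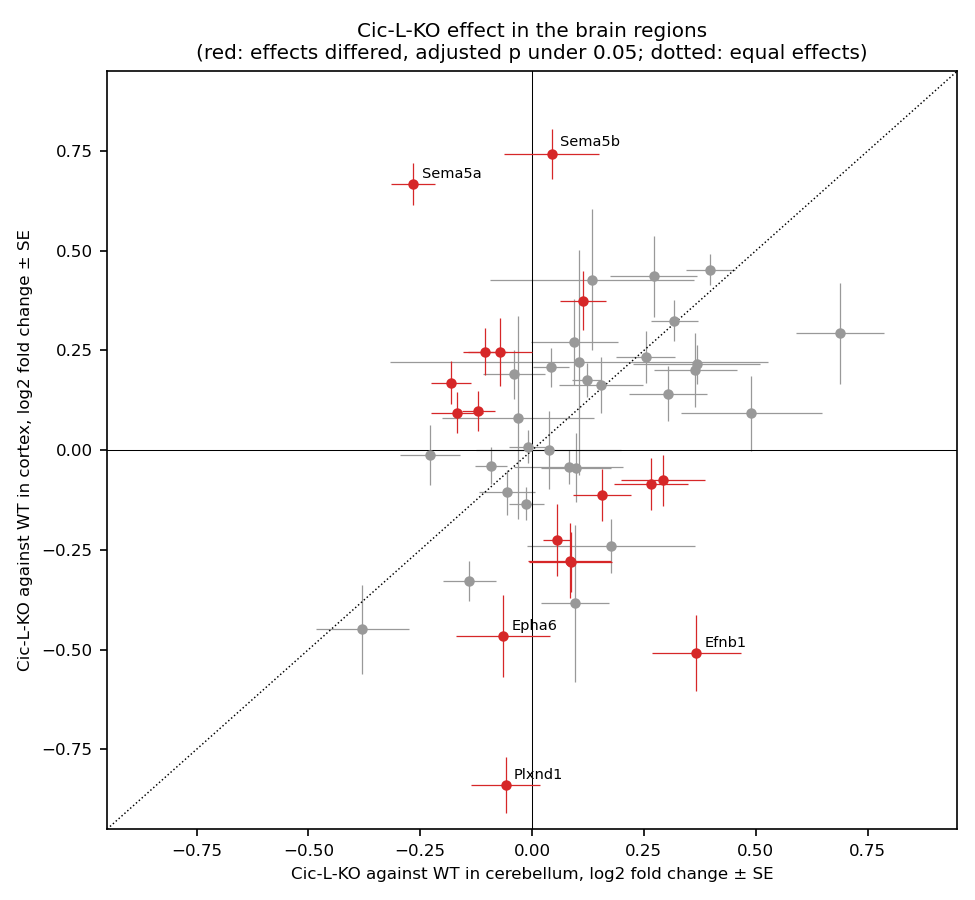
Log2 fold change ± SE of Cic-L-KO against WT for the 46 tested members, with cerebellum on the horizontal and cortex on the vertical axis. The 17 red points differed between regions: Sema5a and Sema5b lie above the dotted line of equal effects and Efnb1, Plxnd1 and Epha6 below it.

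The Cic-S-KO effect differed between the regions for 4 of 46 members (8.70%), against 4.5% of all genes (2.01% higher and 2.5% lower). They were Sema4f (0.30 ± 0.060, adjusted p = 0.00311), Plxnb2 (0.30 ± 0.066, 0.00548), Efna5 (-0.43 ± 0.11, 0.0197) and Plxna4 (-0.26 ± 0.072, 0.0284). Without the 5 cerebellar libraries 2 members passed, where 2.96% of all genes did. Efna5 (-0.38, adjusted p = 0.0701) and Plxna4 (-0.23, 0.0772) did not pass.

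In P6 lung of Cic-S-KO, the class 4 semaphorins Sema4a, Sema4b and Sema4d and the plexin Plxnb3 rose, and Sema5b, Sema6a, Sema6d, Efnb2, Plxna4 and Plxnd1 fell. Of 45 tested members 10 (22.2%) passed, 4 higher and 6 lower, against 15.7% of all 16695 genes (9.99% higher and 5.73% lower). The median log2 fold change was -0.072 over the members and -0.0010 over all genes. Of the 12 membrane-bound semaphorins 3 rose and 3 fell.

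Sema4a, a class 4 semaphorin with roles in T cell responses, was at 15.3 to 21.9 CPM in WT lung (median 17.9), 25.3 to 49.3 in Cic-S-KO (median 30.2) and 21.7 to 27.9 in Cic-L-KO (median 22.7). Its change in Cic-S-KO was 0.83 ± 0.10 (SE, adjusted p = 1.88e-05), with 8 of 8 samples above WT, and 0.70 without replicate 6, the highest sample. Sema4d, the immune semaphorin also called CD100, was at 14.4 to 24.8 CPM in WT (median 19.1) and 19.4 to 38.8 in Cic-S-KO (median 27.5), a rise of 0.52 ± 0.11 (adjusted p = 0.00301) with overlap. Sema4b rose by 0.26 ± 0.069 (0.0103). Plxnb3, a receptor of Sema5a, rose by 0.75 ± 0.18 (0.00497) at low levels (0.883 to 2.15 CPM in WT, 1.85 to 3.16 in Cic-S-KO).

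Sema6d, a ligand of Plxna1, was at 132 to 206 CPM in WT lung and 112 to 156 in Cic-S-KO and fell by 0.37 ± 0.093 (adjusted p = 0.00937). Efnb2 was at 256 to 360.3 and 187 to 286 CPM and fell by 0.32 ± 0.081 (0.00762). The groups overlapped for both. Plxna4 fell by 0.28 ± 0.083 (adjusted p = 0.0229) and Plxnd1 by 0.16 ± 0.054 (0.0394). Sema5b (-0.68 ± 0.21, adjusted p = 0.0289) and Sema6a (-0.24 ± 0.074, 0.0265) passed with all samples, and without replicate 6 they were at -0.61 (0.0567) and -0.20 (0.0514). Without that library 8 members passed, where 12.8% of all genes did.

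Several leukocyte markers were higher in the same lungs. Of 5 microglia and macrophage markers 4 (Mrc1, Csf1r, Aif1, Cx3cr1) were higher in Cic-S-KO, summing to 204 to 311 CPM against 146 to 192 in WT. All 8 genes of a list for eosinophil, goblet and neutrophil inflammation, made after these data had been seen, were higher (565 to 3232 CPM summed, against 60.8 to 247). Of 5 endothelial markers 2 (Kdr, Cdh5) were lower, at 2792 to 3782 CPM summed against 3259 to 4018. In a T and B lymphocyte list, also made after these data had been seen, 1 of 7 (Cd79a) was higher (40.7 to 60.6 CPM summed, against 22.2 to 44.2), and of 4 airway markers 2 (Foxj1, Scgb3a2) were (4112 to 6171 against 3110.0 to 4482). Their part in the changes of Sema4a, Sema4d, Efnb2 and Plxnd1 was not tested.

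In Cic-L-KO lung, 4 of 45 members (8.89%) passed, all of them higher, against 4.89% of all genes (2.62% higher and 2.28% lower). Sema4f, a class 4 semaphorin, was at 24.3 to 34.0 CPM in WT (median 28.6) and 34.4 to 42.8 in Cic-L-KO (median 38.2), above WT in 8 of 8 samples, a rise of 0.42 ± 0.068 (adjusted p = 0.000443). Sema4a rose by 0.40 ± 0.10 (0.0235) and Efna1 by 0.32 ± 0.061 (0.00228), each with 7 of 8 samples above WT. Secreted Sema3a, at 104 to 144 CPM in WT and 116 to 177 in Cic-L-KO, rose by 0.26 ± 0.068 (0.0244), with an adjusted p of 0.0516 when Cic-S-KO lungs were left out of the fit. Of 5 alveolar type 1 markers 3 (Ager, Aqp5, Hopx) were higher in Cic-L-KO lung, at 2936 to 3482 CPM summed against 2593 to 3067 in WT. Of 5 microglia and macrophage markers 1 (Csf1r) was higher (185 to 228 against 146 to 192), and no marker of either list was at 0. Their part in the changes of the 4 members was not tested.

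**Figure D4:**
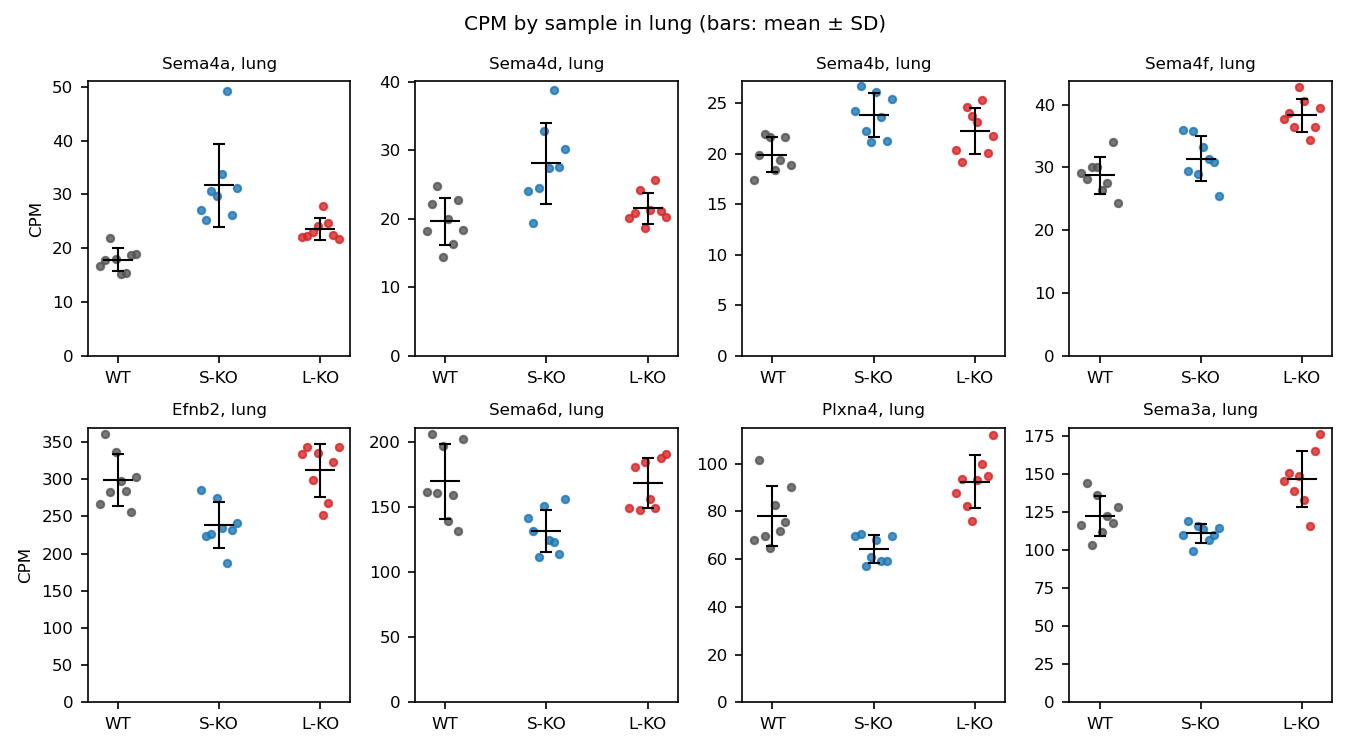
CPM of each P6 lung sample for 8 members in WT, Cic-S-KO and Cic-L-KO (8 samples each), with bars for mean ± SD. Every Cic-S-KO point of Sema4a and every Cic-L-KO point of Sema4f lies above all WT points, while the groups overlap for Efnb2, Sema6d and Sema3a.

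Compared directly, the lungs of the knockouts differed in 15 of 45 members (33.3%), 5 higher in Cic-S-KO and 10 lower, against 12.2% of all genes (7.31% higher and 4.85% lower). Plxna4 was lower in Cic-S-KO (57.1 to 70.6 CPM) than in Cic-L-KO (75.8 to 112) without overlap (-0.52 ± 0.084, adjusted p = 0.000189). Sema3a (-0.40 ± 0.068, 0.000312), Efnb2 (-0.39 ± 0.081, 0.00197) and Epha1 (-0.26 ± 0.050, 0.000896) were lower too. On the opposite strand Zyx, with a mean of 3594 counts against 396 for Epha1, overlaps 6.01% of the Epha1 exon length, so the Epha1 value is uncertain.

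In the cortex of Cic-S-KO, 12 of 46 members (26.1%) passed, 10 higher and 2 lower, against 6.53% of all genes (2.83% higher and 3.7% lower). The median log2 fold change was 0.061 over the members and -0.00087 over all genes. Of 18 semaphorins 4 rose and 1 fell, 3 of 8 plexins rose, and 2 of 13 Eph receptors rose. Sema4g and Sema6a passed as higher in both knockouts, which share their WT samples, and Sema6b as higher in Cic-S-KO and lower in Cic-L-KO.

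Among the ligands, Efnb3 was at 77.1 to 102 CPM in WT cortex and 79.0 to 133 in Cic-S-KO and rose by 0.34 ± 0.10 (adjusted p = 0.0344). Sema4g rose by 0.26 ± 0.077 (0.0387), Sema6c by 0.21 ± 0.053 (0.0184) and Sema6b by 0.18 ± 0.043 (0.0122). Efna5, an ephrin-A ligand of topographic maps, fell by 0.27 ± 0.069 (adjusted p = 0.0186), with 6 of 7 samples below all WT samples, and Sema3a by 0.20 ± 0.059 (0.0387). With each library's trend over gene GC content removed, 5 members passed, where 2.38% of all genes did. The adjusted p was then 0.0842 for Efnb3, 0.107 for Sema4g, 0.176 for Sema6b, 0.216 for Sema6c and 0.0558 for Efna5. Plxnb2, Plxnb3, Plxna3 and Epha8 were among the 5 that passed, so most of Sema3a, Sema6a and Epha2 did not.

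Among the receptors, Plxnb3 was at 17.3 to 25.3 CPM in WT cortex (median 20.7), 27.4 to 30.2 in Cic-S-KO (median 28.3) and 18.2 to 26.8 in Cic-L-KO (median 23.5). All 7 Cic-S-KO samples were above both other groups, with a change of 0.47 ± 0.071 against WT (adjusted p = 0.000178). Plxnb2 rose by 0.23 ± 0.052 (0.0101), with 7 of 7 samples above WT, and Plxna3 by 0.31 ± 0.077 (0.0152). The EphA receptor Epha8 was at 3.53 to 10.99 CPM in WT (median 5.42) and 9.19 to 14.9 in Cic-S-KO (median 12.0), a rise of 0.81 ± 0.19 (adjusted p = 0.0168) with 4 of 7 samples above WT. Epha2, the receptor gene with the octamer upstream, was at 0.909 to 1.89 CPM in WT and 1.24 to 2.53 in Cic-S-KO and rose by 0.58 ± 0.18 (0.0499), and in Cic-L-KO its 0.43 ± 0.18 did not pass (0.0503). Of 6 oligodendrocyte markers 2 (Mag, Mog) were higher in Cic-S-KO cortex, with 5041 to 7640.0 CPM summed over the list against 4703 to 6545 in WT and no marker at 0. Their part in the change of Plxnb3, a plexin also known in oligodendrocytes, was not tested.

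Compared directly, the cortices of the knockouts differed in 22 of 46 members (47.8%), 13 higher in Cic-S-KO and 9 lower, against 33.9% of all genes (17.4% higher and 16.5% lower). Sema5a (-0.77 ± 0.055, adjusted p = 1.32e-12), Plxna4 (-0.55 ± 0.041, 3.43e-12) and Sema5b (-0.59 ± 0.065, 1.84e-08) were lower in Cic-S-KO and Plxnd1 was higher (0.88 ± 0.072, 5.57e-10), each without overlap. Of 8 EphA receptors 5 were higher in Cic-S-KO and the others did not pass. Of these, Epha8 differed by 1.19 ± 0.20 (4.60e-05), without overlap.

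In the cerebellum of Cic-S-KO, 7 of 46 members (15.2%) passed, 4 higher and 3 lower, against 8.23% of all genes (4.34% higher and 3.89% lower). The median log2 fold change was 0.10 over the members and 0.0053 over all genes. Without the 5 libraries high in Slc17a6, 10 passed, 5 of them the same, where 7.22% of all genes did. With no filter on low counts 4 passed, where 2.48% of all genes did. Over all alternatives the count ran from 4 to 12. Efnb2, at 33.8 to 38.5 CPM in WT and 37.4 to 51.9 in Cic-S-KO, rose by 0.27 ± 0.066 (adjusted p = 0.0110). Efnb3 rose by 0.31 ± 0.10 (0.0491), and without those libraries it was at 0.24 (0.0528). Sema6a rose by 0.28 ± 0.054 (0.00206), with 7 of 7 samples above WT.

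Sema4f was at 66.8 to 72.8 CPM in WT cerebellum (median 70.0) and 54.1 to 67.9 in Cic-S-KO (median 58.3), with 6 of 7 samples below WT, and fell by 0.25 ± 0.043 (adjusted p = 0.00109). Sema5a, at 50.9 to 58.1 CPM in Cic-S-KO, was below WT in 7 of 7 samples and fell by 0.24 ± 0.051 (0.00425). Plxnb1 rose by 0.11 ± 0.033 (0.0355), and Sema7a fell by 0.10 ± 0.033 (0.0487), the latter with an adjusted p of 0.168 without the 5 libraries. Of 5 granule neuron markers 4 were lower in Cic-S-KO cerebellum, with 2953 to 4455 CPM summed against 4317 to 5338 in WT and no marker at 0. Of 5 tested inhibitory neuron markers 4 (Gad1, Gad2, Pvalb, Slc32a1) were higher (1866 to 2291 CPM summed over the list of 6, against 1520.0 to 1849), with the untested Vip at 0 in some samples. Of 5 astrocyte markers 2 (Aldh1l1, Slc1a3) were higher (2636 to 3163 against 2447 to 3053). The 5 choroid plexus markers summed to 110.3 to 4023 CPM against 12.96 to 2914 in WT, and none of them passed. The part of these markers in the changes of the members was not tested. Efnb3, Plxnb1, Sema5a and Sema6a passed in the same direction in both knockouts, which share their WT samples.

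Compared directly, the cerebella of the knockouts differed in 7 of 46 members (15.2%), 2 higher in Cic-S-KO and 5 lower, against 12.4% of all genes (6.06% higher and 6.38% lower). Without the 5 libraries high in Slc17a6, 7 differed, 5 of them the same, where 12.5% of all genes did. Efna1 was at 3.17 to 4.85 CPM in Cic-S-KO and 4.59 to 6.81 in Cic-L-KO, a difference of -0.63 ± 0.10 (adjusted p = 0.000106). Efnb1 (-0.35 ± 0.10, 0.0255), Plxna4 (-0.24 ± 0.057, 0.00580), Sema4f (-0.24 ± 0.043, 0.000451) and Sema7a (-0.16 ± 0.033, 0.00153) were lower in Cic-S-KO too. Over the 3 tissues, 24 members (51.1%) passed in at least 1 tissue of Cic-S-KO, against 23.3% of all genes tested in any. Here too a smaller part of the genes than of the members was tested in all 3 tissues. In the same direction in all 3, 0 of 44 passed by edgeR or DESeq2 and 1 at an unadjusted p under 0.05, where 0.14% of genes did by edgeR. Efnb3 and Plxnb3 passed as higher in 2 tissues (4.35% of members, against 2.06% of genes with 2 calls in 1 direction). Efnb2 passed as lower in lung and higher in cerebellum, and Sema6a as lower in lung and higher in both brain regions (4.35% of members with opposite calls, against 1% of genes). The lung fall of Sema6a did not pass without Cic-S-KO replicate 6 (adjusted p = 0.0514 by edgeR).

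**Figure D5:**
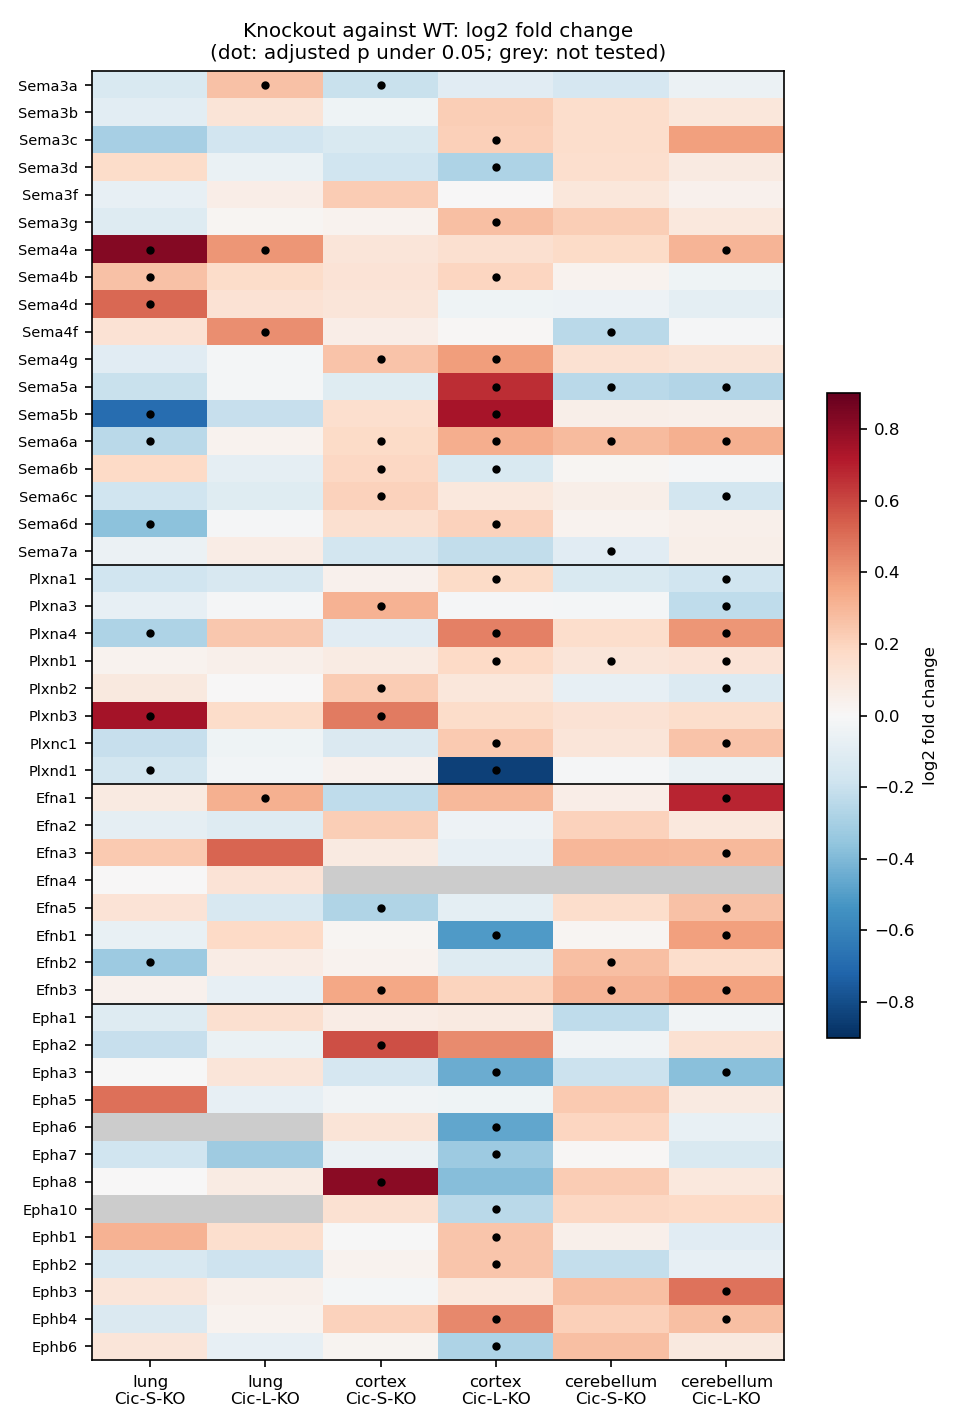
Log2 fold change of every member in the 6 knockout against WT comparisons, with members in rows by family, dots for an adjusted p under 0.05 and grey where a member was not tested. Cic-L-KO cortex holds 24 dots, Cic-L-KO cerebellum 18, Cic-S-KO cortex 12, Cic-S-KO lung 10, Cic-S-KO cerebellum 7 and Cic-L-KO lung 4.

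Of the 47 members, 41 (87.2%) passed in at least 1 of the 6 knockout against WT comparisons, against 56.3% of the 19440 genes tested in any of them. The 6 others were the ligands Sema3b, Sema3f, Efna2 and Efna4 and the receptors Epha1 and Epha5. As 44 of the members but only 14306 of the genes were tested in all 3 tissues, the shares rest on unlike numbers of tests. Epha5, a receptor of Efna5, had small errors in cortex (-0.035 ± 0.044 for Cic-S-KO, -0.042 ± 0.043 for Cic-L-KO). Sema3b had wide ones in cerebellum (0.16 ± 0.44 and 0.10 ± 0.42). Whether its spread there followed that of the choroid plexus markers was not tested.

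Partner genes of the families were listed separately, and their counts are given beside the share of all genes called in the same comparison. Of 11 tested coreceptors and partners, 4 were higher and 1 lower in Cic-L-KO cortex (all genes: 21.4% and 21.9%), 45.5% in all against 43.2% of all genes. Nrp1, the neuropilin that receives Sema3a (0.77, adjusted p = 8.31e-08), and Kdr, a partner of neuropilins on vessels (0.80, 2.50e-05), were higher. So were Chl1 and Gpc3, and Ptk7 was lower. In Cic-L-KO cerebellum 4 were higher and 1 lower (all genes: 10.9% and 10.6%). Kdr was at 1.14 (1.87e-08) and Nrp1 at 0.60 (0.00175), Erbb2 and L1cam were also higher, and Chl1 was lower. Kdr is also in the endothelial list above, and the part of endothelial cells in these changes was not tested. Of 25 genes acting below plexins, 4 passed in Cic-L-KO cerebellum, all higher (16%, against 21.5% of all genes). In Cic-L-KO cortex 10 were higher and 3 lower, 52.0% in all against 43.2% of all genes. The collapsin response mediators Dpysl5 (1.01, 4.58e-13), Dpysl3 (0.35, 5.88e-07), Dpysl4 (0.31, 1.58e-05) and Crmp1 (0.20, 3.22e-05) were higher there, and Dpysl2 was lower (-0.23, 4.79e-06).

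Of 21 tested genes acting below Eph receptors and ephrins, 8 were higher and 6 lower in Cic-L-KO cortex, 66.7% in all against 43.2% of all genes. Chn1, a chimaerin that acts below EphA receptors, was lower (-0.52, adjusted p = 1.06e-11), as was the exchange factor Kalrn (-0.34, 1.10e-07), and Grip1, an adaptor of ephrin-B proteins, was higher (0.53, 5.95e-10). In Cic-S-KO cortex 3 were higher and 2 lower (23.8%, against 6.53% of all genes), with Grip2 at 0.35 (0.000551) and Chn1 at -0.19 (0.00796). In lung 1 of 20 was higher and 6 were lower in Cic-S-KO (35.0%, against 15.7% of all genes). Rasa1 was lower there (-0.25, 0.00107) and in the lung of Cic-L-KO (-0.16, 0.0418), where 3 of the list passed (15.0%, against 4.89%).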

How the data were processed

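The authors deposited 1 table of read counts per gene and sample, made from poly(A)-selected total RNA of flash-frozen tissue per the labels' protocols. STAR 2.7 and GRCm38.p6 are named in the submitters' processing notes, and the counting program and its strand setting are not given in the sources used here. Of 50789 gene identifiers 50725 matched GENCODE M21, which gave names and exon lengths.

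Genes passed edgeR's filterByExpr in a fit of each tissue over its 3 genotypes (16695 genes in lung, 16974 in cortex, 16643 in cerebellum) or of all 46 brain samples (18032 genes). Counts were scaled by TMM and tested with edgeR 4.0.16 in R 4.3.3 (robust quasi-likelihood F test, no covariate), with Benjamini-Hochberg adjustment over all genes tested and a threshold of 0.05. The SE of a log2 fold change is its size divided by the square root of F. No 2 samples of the same group held identical values, and samples of different groups were not compared in this way. The test script was checked on simulated counts.

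Members named with values were those with the 8 largest changes past the threshold (mean log2 CPM of at least 1) and the 4 smallest p in each knockout against WT comparison, the 4 smallest p in the other comparisons, the 5 largest in each direction between WT regions, and those called in both knockouts or in opposite directions in 2 tissues. Others were named after their values were seen. The members and lists were chosen with earlier results of these data known. Alternatives were DESeq2 1.42.0, size factors by RLE, no filter, a mean of at least 50 counts, GC trends removed over 20 bins, a Y-linked covariate, the replicate number as a block and only the genotypes compared. After the data had been seen, the 5 cerebellar libraries high in Slc17a6 (above 75 CPM), lung Cic-S-KO replicate 6 and a block by library number were added.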

Additional observations from a re-analysis of the deposited data

Results flagged for a closer look

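In 10 of 128 groups of samples tested, 1 library stood apart from the rest of its group, and chance flags about 1 in 20 groups, or 6.4 here. WT cerebellum replicate 1, among the 5 libraries high in Slc17a6, stood apart for Epha10 (17.5 CPM, the others 7.33 to 10.7), Epha5 (35.0, the others 23.3 to 27.2), Ephb6 (28.0, the others 16.7 to 20.4) and Sema4g (94.8, the others 105.3 to 111.6). The other high values were Efna3 in WT cerebellum replicate 2 (8.87 CPM, the others 6.61 to 7.55), Ephb3 in Cic-L-KO cerebellum replicate 4 (11.2, the others 5.97 to 7.58), Efnb3 in Cic-S-KO cerebellum replicate 6 (115.3, the others 68.3 to 85.3), Sema4f in Cic-S-KO cerebellum replicate 1 (67.9, the others 54.1 to 59.97), Sema3b in WT cortex replicate 2 (7.74, the others 2.36 to 4.66) and Sema4a in Cic-S-KO lung replicate 6 (49.3, the others 25.3 to 33.9).

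By an interaction term, the Cic-L-KO effect differed between cortex and cerebellum for 17 members, of which Sema5a (0.93), Plxnd1 (-0.78), Efnb1 (-0.88) and Sema5b (0.70) had the smallest p, in log2 of cortex minus cerebellum. The Cic-S-KO effect differed for 4 members: Sema4f (0.30), Plxnb2 (0.30), Efna5 (-0.43) and Plxna4 (-0.26).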

How the results depend on the processing

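The number of members past the threshold, beside the share of all genes past it in the same fit, was 5 (2.38% of all genes) in Cic-S-KO cortex with the GC trend removed and 7 (3.69% of all genes) with the replicate number as a block, against 12 (6.53% of all genes) as reported. In Cic-S-KO cerebellum it was 12 (12.1% of all genes) with DESeq2, 4 (2.48% of all genes) with no filter on low counts, 4 (3.55% of all genes) with the replicate block and 4 (6.01% of all genes) with the library number as a block, against 7 (8.23% of all genes). The replicate block gave 7 (7.7% of all genes) in Cic-L-KO lung, against 4 (4.89% of all genes). The Cic-L-KO effect differed between regions for 10 (8.11% of all genes) with no filter, against 17 (23% of all genes), and the Cic-S-KO effect for 2 (2.96% of all genes) without the 5 cerebellar libraries, against 4 (4.5% of all genes). Over all alternatives the counts ranged from 20 to 28 in Cic-L-KO cortex, 16 to 19 in Cic-L-KO cerebellum, 8 to 14 in Cic-S-KO lung and 5 to 12 in Cic-S-KO cortex. The cause of these shifts was not tested.

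Of 684 values of named members under an alternative, 650 kept their direction and their side of the threshold, 34 kept only the direction, and none reversed. Efnb3, Plxnb1 and Sema7a in Cic-S-KO cerebellum lost the threshold under 5 or 6 alternatives each, and Ephb3 in Cic-L-KO cerebellum had an adjusted p of 0.0681 with the replicate block. Deviations of same-numbered samples from their group means correlated over 0.1 in 16 of 24 pairs in lung, 8 of 22 in cortex, 9 of 22 in cerebellum and 10 of 23 between cortex and cerebellum of a genotype. As some pairs did not, and the labels tie no number to an animal or batch, the numbers were not taken to pair the samples. In lung a sample correlated best with its own number in 24 of 48 comparisons with another genotype, in cortex in 11 of 44 and in cerebellum in 6 of 44. Between cortex and cerebellum of a genotype it did so in 21 of 46. These are hints from the data and not the design. The region tests as reported paired no samples. With the replicate block the Cic-L-KO effect differed between regions for 4327 genes against 4145 as reported, and the Cic-S-KO effect for 851 against 812. In lung the block called 3339 genes in Cic-S-KO against 2624 as reported, and 1285 in Cic-L-KO against 817, with 14 and 7 members. Epha6 and Epha10 in lung and Efna4 in brain were too low to test.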

Other observations

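Other guidance families were also listed (netrins, slits and their receptors). Of 23 tested, 11 were higher and 4 lower in Cic-L-KO cortex (65.2%, against 43.2% of all genes). Slit1, a secreted repellent, was higher (0.80 log2, adjusted p = 2.51e-12), as was the netrin-G gene Ntng2 (0.56, 3.33e-09), while the slit receptor gene Robo2 was lower (-0.35, 7.25e-09). In Cic-L-KO cerebellum 6 of 22 were higher and 2 lower (36.4%, against 21.5%), with the slit receptor gene Robo1 at 0.57 (5.89e-06) and netrin Ntn1 at 0.35 (0.00228). In Cic-S-KO cerebellum 4 were higher and 1 lower (22.7%, against 8.23%), with Ntn1 at 0.41 (0.00305) and Robo2 at 0.39 (0.00172). In Cic-S-KO lung 2 of 21 passed (9.52%, against 15.7%), both lower: the netrin receptor gene Unc5c (-0.42, 0.00319) and Slit2 (-0.32, 0.00988). In Cic-L-KO lung 2 passed (9.52%, against 4.89%), both higher: Ntn4 (0.38, 0.000298) and Ntng2 (0.31, 0.0474). These are values from edgeR's quasi-likelihood test, adjusted over all genes.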
